A study of Mus musculus with 2 samples.

Results

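The cytochrome P450 genes of the mouse were examined for open chromatin in embryonic liver. They were chosen by name, as protein-coding genes in the GENCODE M21 annotation whose symbol is Cyp, a number, a letter and a number (a last letter, as in Cyp3a41a, was allowed), with Cyp51 kept. This gave 99 of 21938 protein-coding genes on the 21 chromosomes. By the known work of their enzymes they were placed in 7 classes. There were 47 drug and xenobiotic genes, 29 fatty acid and eicosanoid genes, 6 bile acid genes, 6 steroid hormone genes, 6 retinoid and vitamin D genes, 1 sterol synthesis gene (Cyp51) and 4 others.

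P450 enzymes are heme-containing oxidases that insert oxygen into lipids, hormones and foreign compounds, with electrons handed on by partner proteins. The adult liver holds most of the drug-metabolising forms and makes bile acids with others, and many of these genes are known to be turned on only around birth or after it. Other members act in every growing cell, in steroid glands or in tissues where retinoic acid has to be destroyed. Many drug-metabolising genes lie in arrays of near copies.

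Open chromatin was mapped with DNase-seq, a method that sequences the ends left where the nuclease DNase I cuts accessible DNA, in liver from embryos at 13.5 days. Both libraries came from a C57BL/6N,129 background described as wild type with the A85 YAC, a yeast artificial chromosome present in multiple copies. They were biological replicates 1 and 2 of 1 group and carried the same donor label, and no second condition was available, so no test over samples was possible. The tissue was checked against cell type markers. Of 10 erythroid marker genes 10 had a promoter region found in both replicates, and of 12 hepatoblast markers 6 did, where 58.4% of all protein-coding genes had one. The values at those regions ran from 3.24 to 22.5 for the erythroid genes and from 0.899 to 12.0 for the hepatoblast genes in replicate 1. Alb, Apoa1 and Ttr were among the hepatoblast markers without one. Regions were also found at 1 of 5 endothelial, 0 of 5 macrophage, 3 of 5 stellate, 1 of 3 bile duct and 0 of 5 steroidogenic markers. In bulk tissue, fewer cells of a type and less signal per cell cannot be told apart.

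Each peak carries a signal value, its unit not given in the sources used here. Values of a library were whole multiples of 1 step, 0.01266 in replicate 1 and 0.006036 in replicate 2. The median peak held 69 and 126 such steps. The intervals below are 95% Poisson intervals of these counts and cover counting error only. Peaks of the 2 replicates that overlapped were joined into 1 region, called shared below. Promoter regions lie within 1 kb of any annotated transcript start of their gene, and distal ones have no protein-coding start within 1 kb.

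Most P450 genes had no open promoter that was detected in this tissue. A shared promoter region was found at 20 of the 99 genes (20.2%), where 58.4% of all protein-coding genes had one. Counting only the 5′ end of each gene, the numbers were 18 of 99 (18.2%) and 53.7%. A peak in replicate 1 alone lay at 1 gene, Cyp2c68, against 1.77% of all genes, and a peak in replicate 2 alone at 5 genes, Cyp27a1, Cyp24a1, Cyp26a1, Cyp4f17 and Cyp4x1, against 6.42%. No promoter peak in either replicate was found at 73 (73.7%), against 32.9% of all genes. With each library taken by itself, 21 genes had a promoter peak in replicate 1 (60.6% of all genes did) and 25 in replicate 2 (65.3%). Shared footprints, short stretches protected from cutting in both replicates, lay within 1 kb of 13 genes (13.1%), against 52.3% of all genes.

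**Figure D1:**
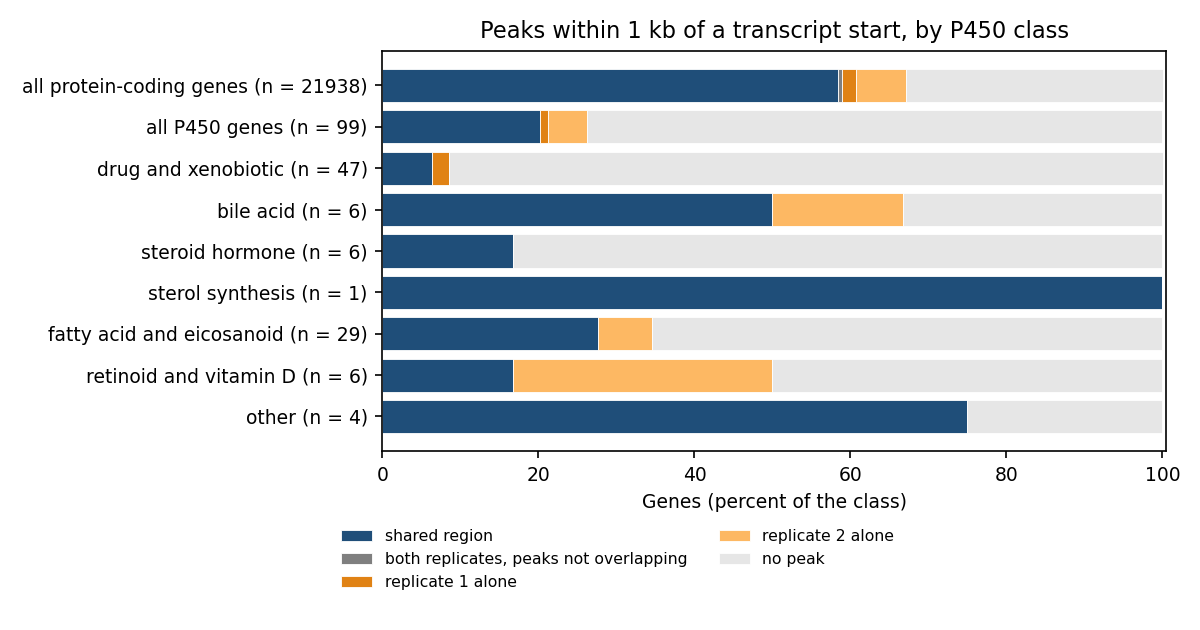
Percent of genes in each class (x axis) by the kind of peak within 1 kb of a transcript start: shared by both replicates (dark blue), in both replicates without overlap (grey), in replicate 1 or replicate 2 alone (orange shades), or none (light grey). Shared regions were found at 6.38% of the 47 drug and xenobiotic genes, 27.6% of the 29 fatty acid and eicosanoid genes and 58.4% of all protein-coding genes.

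The classes differed in their counts. A shared promoter region was found at 3 of 47 drug and xenobiotic genes, 8 of 29 fatty acid and eicosanoid genes, 3 of 6 bile acid genes, 1 of 6 steroid hormone genes and 1 of 6 retinoid and vitamin D genes. Cyp51 had one, as did 3 of the 4 other genes. The share of the drug class (6.38%) was the lowest, and those of the small classes rest on 6 genes or fewer.

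Where a promoter was open, the signal was mostly low beside that of other genes. The median over the 20 genes was 1.73 in replicate 1 and 1.5 in replicate 2, against 5.96 and 5.05 over all genes with a shared promoter region. Placed among those genes, 3 P450 genes lay above the 50th percentile in both replicates and 12 lay under the 25th in both. The 3 were Cyp46a1, Cyp51 and Cyp20a1.

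**Figure D2:**
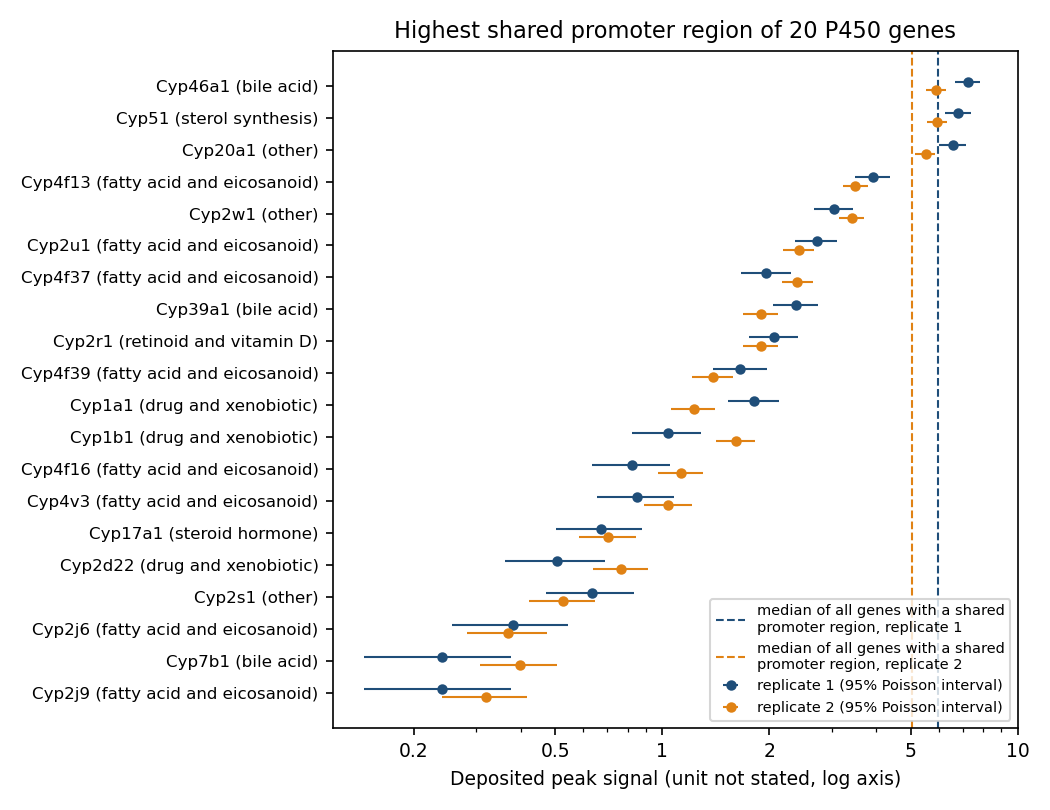
Deposited peak signal (x axis, log scale, unit not stated) of the highest shared promoter region of each of the 20 P450 genes that had one, in replicate 1 (blue) and replicate 2 (orange), with 95% Poisson intervals. Dashed lines mark the medians of all genes with a shared promoter region, 5.96 and 5.05, and only Cyp46a1, Cyp51 and Cyp20a1 reach past them in both replicates.

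Cyp46a1 encodes a cholesterol hydroxylase best known from neurons, where its product carries cholesterol out of the brain. Its promoter region, chr12:108333981-108334360 on mm10, just upstream of the first exon, had the highest value of any P450 gene in replicate 1 and the second, after Cyp51, in replicate 2. The signal was 7.23 in replicate 1 (6.65 to 7.84) and 5.89 in replicate 2 (5.52 to 6.27), at the 57.5th and 56.4th percentiles. The region held 6 shared footprints. Cyp20a1, an orphan P450 with no settled substrate, had 6.56 (6.00 to 7.15) and 5.51 (5.15 to 5.87) at chr1:60343161-60343600, over its first exon, also with 6 footprints. Cyp51, the lanosterol demethylase of cholesterol synthesis, had 6.80 (6.23 to 7.40) and 5.93 (5.56 to 6.31) at chr5:4104381-4104880, over its 5′ UTR, with 4 footprints. In each of these 3 genes the signal of replicate 2 was the lower, before any scaling between the libraries. The median log2 ratio of replicate 2 to replicate 1 over all shared regions was -0.19. With that median set to 0, the ratios were -0.11 at Cyp46a1, -0.06 at Cyp20a1 and -0.01 at Cyp51.

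Footprints from these promoters are shown because they carry the highest P450 signals, and 1 from Cyp2r1, a gene of lower signal described below, because it holds a CCAAT box. Each line gives the footprint with 5 bases on either side, 5′ to 3′ on the gene's strand, from the GRCm38 assembly. Capitals mark GCGTG, the core of the element bound by the dioxin receptor AHR, CCAAT, the box bound by NF-Y, or CCACNCCC, the letters bound by KLF factors. GCGTG and the reverse of CCACNCCC overlap in the run GGGCGTGG, which was also present in a footprint of Cyp4f39, a gene of lower signal.

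Cyp46a1 footprint at chr12:108334112-108334147, plus strand: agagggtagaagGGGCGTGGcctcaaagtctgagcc

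Cyp46a1 footprint at chr12:108334214-108334259, plus strand: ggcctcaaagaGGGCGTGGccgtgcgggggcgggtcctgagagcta

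Cyp20a1 footprint at chr1:60343254-60343289, plus strand: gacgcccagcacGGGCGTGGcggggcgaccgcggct

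Cyp51 footprint at chr5:4104819-4104847, minus strand: ggcgccccacggagggggcggtgcccggg

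Cyp2r1 footprint at chr7:114563013-114563054, minus strand: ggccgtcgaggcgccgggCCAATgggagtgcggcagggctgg

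Over all 44 shared footprints in P450 promoter regions, GCGTG was present in 11 (25%), against 11.9% of the 43287 shared footprints within 1 kb of any protein-coding start. These 11 belonged to 7 genes, and several came from the same promoter. CCACNCCC was present in 4 (9.09% against 5.04%) and CCAAT in 3 (6.82% against 6.33%). TNGCGTG, the longer letters of the AHR element, was present in 0 of the 44, against 0.802% of all promoter footprints. Over RefSeq promoters, defined below, the order for GCGTG was reversed. It was present in 17 of 86 P450 promoters (19.8%), against 39.6% of 20150 promoters in all. Of the 12 P450 promoters in a shared region, 9 held it. Both strands were searched. The Cyp51 footprint printed above held none of the letters searched.

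Of the drug and xenobiotic class, only Cyp1a1, Cyp1b1 and Cyp2d22 had a shared promoter region. Cyp1a1, which oxidises polycyclic hydrocarbons and is the best known target of AHR, has 2 annotated starts. The region near the upstream one, chr9:57688161-57688360 in an intron, had 1.81 (1.53 to 2.13) in replicate 1 and 1.23 (1.06 to 1.41) in replicate 2. The region that covers the RefSeq start, chr9:57697421-57697622, had 0.633 (0.470 to 0.834) and 0.525 (0.421 to 0.648). A region beside it, chr9:57696342-57697100, had 0.683 and 0.652. The Poisson intervals of the upstream region did not overlap those of the other 2 in either replicate. Cyp1a2, the neighbour in opposite orientation that oxidises caffeine, had no promoter peak in either library.

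Cyp1b1, which oxidises estrogens and hydrocarbons outside the liver, had its shared region at chr17:79715641-79715860, 580 bp upstream of the 5′ end. The signal was 1.04 (0.825 to 1.29) in replicate 1 and 1.61 (1.42 to 1.82) in replicate 2. Cyp2d22, a drug-oxidising Cyp2d gene, had 0.506 (0.362 to 0.689) and 0.767 (0.639 to 0.912) at chr15:82379571-82380200, in an intron. Cyp2c68, a Cyp2c gene, had only a peak of replicate 1, with a signal of 0.165 from 13 counts.

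The footprints at Cyp1a1 and Cyp1b1 are shown because they are the drug class members with any shared footprint within 1 kb. Capitals mark CCANNAGNNGGC, letters of the insulator protein CTCF, AGATAA, letters of GATA factors, and GCGTG. The CTCF letters were added to the search after footprint sequences had been read.

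Cyp1a1, near the upstream start, chr9:57688248-57688283, plus strand: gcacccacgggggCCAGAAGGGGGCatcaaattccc

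Cyp1a1, near the RefSeq start, chr9:57697538-57697565, plus strand: ccactgggctcAGATAAggagGCGTGgc

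Cyp1b1, upstream, chr17:79715731-79715761, minus strand: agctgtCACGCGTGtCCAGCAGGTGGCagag

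The CTCF letters were present in the stronger Cyp1a1 region and in the Cyp1b1 region. In all, 5 of the 44 P450 promoter footprints held them (11.4%), against 1.61% of all promoter footprints. As the letters were added after footprints had been read, these shares are a description and not a test. They belonged to Cyp1a1, Cyp1b1, Cyp2w1 and Cyp4f37. At the RefSeq start of Cyp1a1 the footprint held GCGTG and AGATAA, 4 bases apart, but not the longer TNGCGTG.

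The other 43 drug and xenobiotic genes with no promoter peak included the main liver forms. Cyp2e1, which oxidises ethanol, Cyp3a11, the chief Cyp3a of adult mouse liver, Cyp3a13 and Cyp2c29 had none in either replicate. The deposited false discovery rate (FDR) was also read, below the level of peaks. It comes from the same alignments as the peaks, so it is no independent evidence. The same count over all genes without a promoter peak was not made. Of the 73 P450 genes without a promoter peak, 70 had no base with an FDR under 0.05 in the promoter windows of both replicates. The 3 with any, all in replicate 1, were Cyp21a1 (22 bases), Cyp2j7 (34) and Cyp4f18 (53).

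Near-identical copies limit what can be seen at some of these genes. For each gene, the share of 31-base words within 1 kb of the 5′ end that occur once in the assembly was counted. It was 7.51% at Cyp2c29, 9.74% at Cyp3a41b and 10.2% at Cyp3a41a, with a median of 91.3% over the 99 genes and 98.3% over all genes. Values at these copies are uncertain, as the handling of reads with several matches was not given in the sources used here. Cyp2e1 (100%), Cyp3a11 (95.3%), Cyp3a13 (93.5%), Cyp7a1 (99.6%) and Cyp19a1 (100%) had unique promoters and no peak. At 88 genes at least 50% of the words were unique, and the 20 genes with a shared promoter region were among them (22.7%, against 62.1% of all genes with such words).

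HNF4 letters were found at promoters without a shared region. CAAAGTCCA, which the hepatocyte nuclear receptor HNF4A binds, was present in 11 of 86 RefSeq promoters of P450 genes (12.8%), against 0.471% of 20150 promoters in all. Promoters here are 300 bases, 250 before the start and 50 after it, from RefSeq on GRCm38.p6, and 76 of the 99 genes matched. The 11 genes were 6 of the Cyp2c array, 4 of the Cyp3a array and Cyp8b1. None of these promoters lay in a shared region, where only 12 of all 86 P450 promoters did (14%). The copies of an array share sequence, so the 11 genes carried 8 different 27-base stretches. Examples follow, with CAAAGTCCA in capitals.

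Cyp3a16, chr5:145469805-145469831, minus strand: agagacgacCAAAGTCCAggtgatgca

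Cyp2c70, chr19:40187333-40187359, minus strand: ggtcaaactCAAAGTCCAaactctgtg

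Cyp2c65, chr19:39060881-39060907, plus strand: atgttggaaCAAAGTCCActgggagga

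Cyp8b1, chr9:121916355-121916381, minus strand: gcctctgagCAAAGTCCAagggcagga

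The first of these capitals lay between 125 and 45 bases before the start in all 11 genes. Hnf4a itself had a promoter peak in replicate 2 alone and 5 distal shared regions. TTGCNNAA, letters of C/EBP factors, was present in 24.4% of P450 promoters against 10% of all. AGATAA was present in 19.8% against 9.45%. Both shares count promoters, among them array copies and more than 1 promoter of the same gene, such as Cyp4f14 for TTGCNNAA and Cyp4f40 for AGATAA. P450 promoters also had a lower median GC content, 49.7% against 57% of all. The part of these in the 2 shares was not tested.

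Among the bile acid genes the shared promoter regions belonged to Cyp46a1, given above, Cyp39a1 and Cyp7b1. Cyp39a1, which hydroxylates the oxysterol that Cyp46a1 makes, had 2.38 (2.05 to 2.75) and 1.90 (1.69 to 2.12) at chr17:43666921-43667300. That region overlaps a UTR of the mitochondrial carrier gene Slc25a27 and lies within 1 kb of the starts of both genes, so the signal cannot be assigned to 1 of them. Cyp7b1, an oxysterol hydroxylase of the alternative bile acid pathway, had 0.240 (0.145 to 0.376) and 0.398 (0.308 to 0.507), among the lowest of the 20. Cyp7a1, the rate-limiting enzyme of bile acid synthesis, and Cyp8b1, which sets the share of cholic acid, had no promoter peak. Cyp27a1, the mitochondrial sterol hydroxylase, had peaks of replicate 2 alone, of 0.567 and 0.622.

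Of 12 listed genes of bile acid handling that encode no P450 enzyme, 5 had a shared promoter region, against 58.4% of all genes. Scp2 (9.08 and 6.95), Hsd17b4 (6.44 and 5.17), Amacr (4.05 and 4.03), Hsd3b7 (3.70 and 3.99) and Slc27a2 (0.291 and 0.670) were the 5. The first 3 act in peroxisomes, where fatty acids are broken down as well. Abcb11 and Slc10a1, the transporters of bile salts across the hepatocyte membrane, and Baat, which conjugates bile acids, had no promoter peak.

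Like Cyp51, all 24 other listed genes of cholesterol synthesis and its control had a shared promoter region, against 58.4% of all genes. Their values ran from 5.05 to 16.8 in replicate 1 and from 3.45 to 12.8 in replicate 2, and Cyp51 at 6.80 and 5.93 lay in the lower part of both, above 3 of the 24 in replicate 1 and 4 in replicate 2. Sqle, which epoxidises squalene before lanosterol is formed, had 11.1 and 9.19. TCACNCCAC, letters of the sterol response element, was not found in the 300 bases of the Cyp51 promoter; 1.2% of all promoters held it.

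Steroid hormone genes lacked promoter peaks, with 1 exception at an internal start. Cyp11a1, which cuts the cholesterol side chain to begin steroid synthesis, Cyp11b1 and Cyp11b2 of the adrenal cortex, Cyp19a1 (aromatase) and Cyp21a1 had no promoter peak. Cyp17a1, which makes androgen precursors, had 0.671 (0.502 to 0.877) and 0.706 (0.584 to 0.846) at chr19:46670794-46671017. This region lies in an intron, 2155 bp from the 5′ end and 274 bp from an internal start, and it held no shared footprint. Of 12 other genes of steroid synthesis, 3 had a shared promoter region, against 58.4% of all genes, Srd5a1 (17.2 and 13.4), Tspo (5.10 and 4.39) and Hsd11b2 (0.886 and 1.41). Star, which delivers cholesterol to Cyp11a1, had no promoter peak.

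Fatty acid and eicosanoid genes split by subfamily. The Cyp4f genes, omega-hydroxylases of leukotrienes and fatty acids, had shared promoter regions at 4 of 9, where 58.4% of all genes had one. The Cyp2j genes, epoxygenases of arachidonic acid, had them at 2 of 8. None of the 8 Cyp4a genes, omega-hydroxylases that peroxisome proliferators induce in adult liver, had any promoter peak. Their unique words ran from 26.5% at Cyp4a12a to 100% at Cyp4a14, with 76.4% at Cyp4a10, so values at some copies are uncertain. Cyp2u1, a hydroxylase of long-chain fatty acids, and Cyp4v3, another omega-hydroxylase, made up the 8.

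Cyp4f13 had the highest value of this class, 3.91 (3.49 to 4.37) and 3.49 (3.22 to 3.79), at chr17:32947381-32947580 over its 5′ end. Cyp2u1 followed with 2.72 (2.37 to 3.11) and 2.42 (2.19 to 2.67). The Cyp4f37 region, at 1.96 (1.67 to 2.30) and 2.40 (2.17 to 2.65), lay 13812 bp from the 5′ end near an internal start, in a UTR. Cyp4f39 had 1.66 and 1.39, Cyp4f16 0.823 and 1.13, and Cyp4v3 0.848 and 1.04. Cyp2j6 (0.380 and 0.368) and Cyp2j9 (0.240 and 0.320) were near the bottom of the 20. Cyp4f17 (0.634) and Cyp4x1 (0.338) had peaks in replicate 2 alone.

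Of the retinoid and vitamin D genes, only Cyp2r1 had a shared promoter region. Cyp2r1, the enzyme of the first step of vitamin D activation in liver, had 2.06 (1.76 to 2.41) and 1.90 (1.69 to 2.12) at chr7:114562521-114563160, over its first coding exon, with 3 shared footprints. Cyp27b1, which completes that activation in the kidney, had no promoter peak. Cyp24a1, which degrades vitamin D, had peaks of replicate 2 alone, of 0.573 and 0.483, within 1 kb of the start of Pfdn4 as well. Cyp26a1, which destroys retinoic acid, had a peak of replicate 2 alone, of 0.513 (0.410 to 0.634), centred 75 bp inside the gene. Its relatives Cyp26b1 and Cyp26c1 had none within 1 kb.

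Cyp26a1 is a textbook target of retinoic acid, and its promoter held the direct repeat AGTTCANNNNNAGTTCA, which only 3 of 20150 promoters contained. The stretch is shown on the gene's strand, where the repeat reads on the other strand and its letters are in capitals.

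Cyp26a1, chr19:37697770-37697798, plus strand: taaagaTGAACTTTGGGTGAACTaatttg

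The repeat begins 32 bases before the RefSeq start, upstream of the replicate 2 peak. Of 11 listed genes of retinoid supply and breakdown, 7 had a shared promoter region, near the 58.4% of all genes, from 0.253 at Lrat to 4.61 at Rdh10 in replicate 1. The receptor genes Rara (3.65 and 2.75), Rarb (0.608 and 0.942) and Rarg (1.28 and 1.64) had one each.

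The remaining genes were Cyp20a1, given above, Cyp2s1, Cyp2w1 and Cyp2t4. Cyp2w1, an orphan P450 known from fetal gut, had 3.04 (2.67 to 3.45) and 3.41 (3.14 to 3.70) at chr5:139355321-139355520, in an intron near an internal start. A second region, 984 bp from the 5′ end, had 1.57 and 1.59. Both held a footprint with the CTCF letters. Cyp2s1, an epithelial P450, had 0.633 and 0.525 over its 5′ end, and Cyp2t4 had no promoter peak.

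The partners and regulators of P450 enzymes were read from 2 lists. All 7 listed electron donor genes had a shared promoter region, against 58.4% of all genes, with Por, the reductase that serves the enzymes of the endoplasmic reticulum, at 18.0 and 11.8. Fdxr, the reductase of the mitochondrial P450 enzymes, had 12.5 and 11.2, and Fdx1, the carrier it feeds, 1.77 and 1.94. Of 21 nuclear receptor and sensor genes 14 had one, near the share of all genes. Ahr had 2.89 and 3.03, its partner Arnt 9.10 and 5.96, Ppara 2.23 and 3.01, and Cebpa 2.84 and 3.11. Among the 7 without were Hnf4a and the receptor genes for bile acids (Nr1h4) and foreign compounds (Nr1i2 and Nr1i3).

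Most P450 genes lie in arrays, and the arrays differed. The genes formed 33 loci when neighbours within 500 kb were joined. Of these, 7 held at least 4 P450 genes each, 69 genes over 5.4 Mb, and these held 34 shared regions, 6.3 per Mb, against 16.8 per Mb over the 21 chromosomes. Only 8 of the 69 genes had a shared promoter region, and 11 of the 23 genes that stood alone did.

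**Figure D3:**
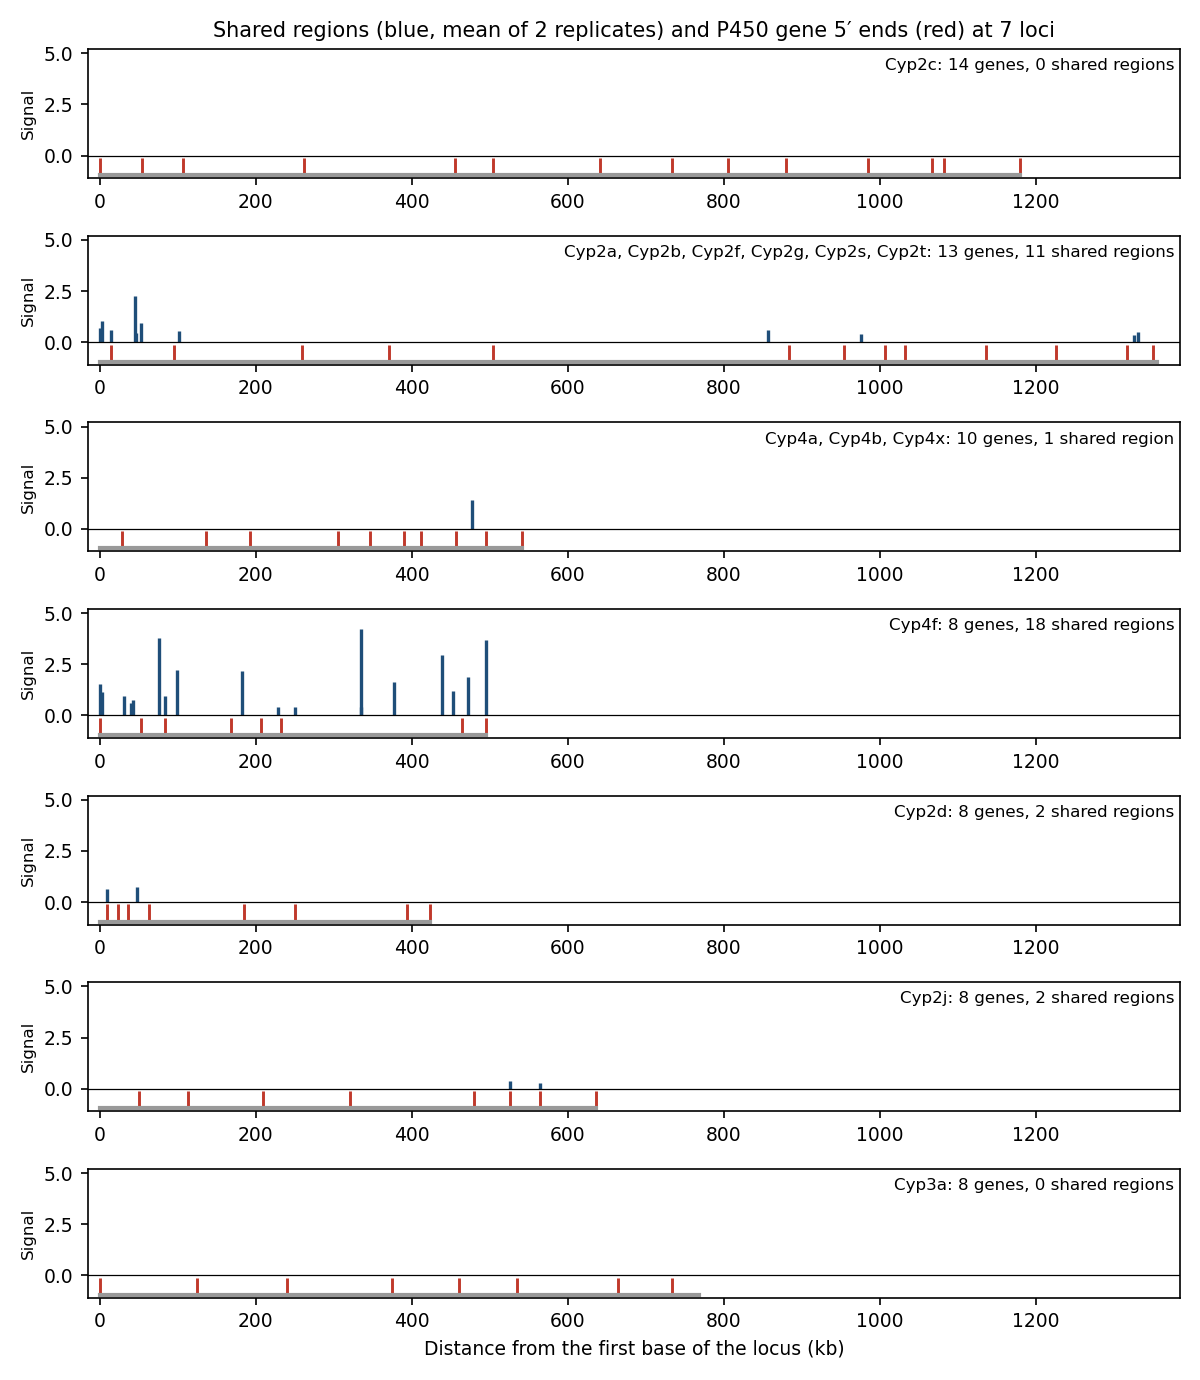
Shared regions (blue lines, mean signal of the 2 replicates on the y axis, unit not stated) and 5′ ends of P450 genes (red ticks) along the 7 loci with at least 4 P450 genes, against distance from the first base of the locus in kb. The grey bar marks the extent of the locus. The Cyp2c and Cyp3a arrays held 0 shared regions and the Cyp4f array 18.

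The Cyp2c array on chromosome 19, 14 genes in 1180 kb, held 0 shared regions, 1 region of replicate 1 alone and 3 of replicate 2 alone. The Cyp3a array on chromosome 5, 8 genes in 768 kb, held 0 shared regions and 2 of replicate 1 alone, and no P450 gene of this array had a shared region of any kind within 50 kb. The Cyp4a, Cyp4b1 and Cyp4x1 locus held 1 shared region, and the Cyp2d and Cyp2j arrays 2 each. No other protein-coding gene overlaps these 5 loci. The locus of Cyp2a, Cyp2b and related genes on chromosome 7 held 11 shared regions in 1356 kb (8.11 per Mb) with 6 other protein-coding genes.

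The Cyp4f array on chromosome 17 stood apart with 18 shared regions in 494.7 kb, or 36.4 per Mb, and 4 other protein-coding genes. All 8 of its P450 genes had a shared region within 50 kb. The highest distal one within 50 kb of a P450 start, chr17:32528841-32529060, in a UTR of Cyp4f17, had 4.53 and 3.02 with 4 footprints. The lowest share of unique words was 72.7% among the Cyp4f genes, against 7.51% among the Cyp2c and 9.74% among the Cyp3a genes. Shares differed within the empty arrays, where Cyp2c38 and Cyp2c65 (91.3% each) and Cyp3a11 (95.3%) had no promoter peak either. The part of uniqueness in the empty arrays was not tested beyond the genes with unique promoters named above.

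Away from promoters, P450 genes had fewer shared regions around them than most genes. At least 1 distal shared region within 50 kb was found at 49 of 99 (49.5%), against 71% of all genes. The mean was 1.18 per P450 gene and 2.32 per protein-coding gene. Neither a promoter nor a distal shared region was found at 43 (43.4%), against 19.9%. A shared footprint of any kind lay within 50 kb of 47 genes (47.5%), against 77.3%.

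**Figure D4:**
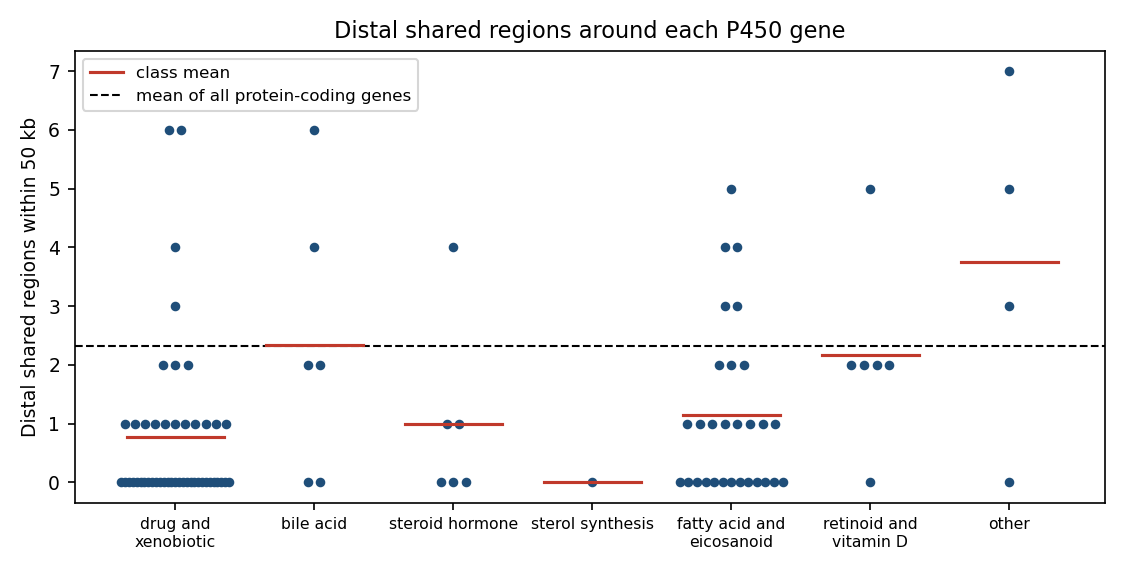
Number of distal shared regions within 50 kb of a transcript start (y axis) for each P450 gene (blue points), by class, with class means (red) and the mean of all protein-coding genes, 2.32 (dashed). The drug and xenobiotic mean was 0.766 with most genes at 0, and Cyp2w1, in the class of other genes, had the most with 7.

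Mean counts by class were 0.766 for drug and xenobiotic, 1.14 for fatty acid and eicosanoid, 1 for steroid hormone, 2.17 for retinoid and vitamin D, 2.33 for bile acid and 3.75 for the other genes. Cyp51 had 0. In all, 86 distal regions lay within 50 kb of a P450 gene, 26 of them near at least 2, and 17 lay within an intron or exon of one. Their median signal was 1.07 and 0.986, against 1.14 and 0.911 for all 25847 distal shared regions. At 45 of the 86 (52.3%) the nearest protein-coding start was that of a P450 gene, and the others were nearer to a gene of another kind.

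The genes with the most distal regions showed this sharing. Cyp2w1 had 7, led by chr5:139372161-139372380 (9.39 and 8.66), which lies nearest to Gpr146. The 6 around Cyp1a1 and Cyp1a2 were the same regions, all nearest to the kinase gene Csk and led by chr9:57655821-57656020 (6.66 and 6.80). Cyp4x1 had 5, led by chr4:115095681-115096160 (13 and 6.94, with 8 footprints), the highest of the 86 in replicate 1 and under the Gpr146 region in replicate 2, 4749 bp from Pdzk1ip1. Cyp24a1 also had 5, 4 of them nearest to Pfdn4.

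Other distal regions had a P450 start as the nearest. Of the 6 around Cyp46a1, chr12:108333101-108333320 (1.73 and 1.88, 4 footprints) lay 1061 bp upstream of its start and 1 lay in its intron. Cyp2s1 had 5, led by chr7:25848081-25848260 (2.20 and 2.35). Cyp26b1 had 2 in its introns, of which chr6:84590401-84590560 (1.91 and 2.13) lay 1763 bp from an internal start. The 2 around Cyp26a1 and Cyp26c1 were chr19:37668261-37668560 (3.54 and 1.00) and chr19:37704001-37704200 (1.20 and 1.88).

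Some genes without a promoter peak had distal regions all the same. Cyp8b1 had 4, 1 of them nearest to itself (1.27 and 0.972), and Cyp11a1 had 4, 2 of them nearest to itself. Cyp2e1 had 1, nearest to Zfp941 (0.772 and 0.477), and Cyp3a13 had 2, nearest to Pilrb2. Cyp27b1 had 2, nearest to March9 and Agap2. Cyp7a1, Cyp19a1 and Cyp11b1 had no distal shared region.

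CTCF letters, added after footprints had been read, were common in distal footprints near P450 genes and in distal footprints at large. Of 48 shared footprints in the 45 regions nearest to a P450 start, 12 held CCANNAGNNGGC (25%), against 17.2% of 29168 distal footprints in all. In the central 200 bases of the 86 distal regions they were present in 28 (32.6%), against 25.5% of all distal shared regions. HNF4 letters were in none of the 86, AGATAA was in 14% against 15.9%, and TTGCNNAA in 3.49% against 7.58%. The lines below, from regions near 3 genes with no shared promoter region, show the CTCF letters in capitals.

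Near Cyp8b1, chr9:121928785-121928823, minus strand: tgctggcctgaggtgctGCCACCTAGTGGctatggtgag

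Near Cyp11a1, chr9:57990605-57990642, plus strand: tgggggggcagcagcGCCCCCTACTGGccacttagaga

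Near Cyp26a1, chr19:37704072-37704125, plus strand: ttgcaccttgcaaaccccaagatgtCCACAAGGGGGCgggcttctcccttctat

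P450 promoters were poor in CpG, the dinucleotide whose density marks the promoters of widely expressed genes. The ratio of observed to expected CpG (o/e) had a median of 0.152 over the 86 RefSeq promoters of P450 genes and 0.588 over all 20150. It was 0.507 in the 12 P450 promoters that overlapped a shared region and 0.135 in the 74 that did not. Over all genes the medians were 0.798 and 0.246. Cyp46a1 (0.972), Cyp51 (0.894), Cyp2r1 (0.710) and Cyp20a1 (0.672) were among the richest, and Cyp1a1 was open at 0.186.

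Openness was also read at a given CpG content. With o/e of at least 0.6, 5 of 7 P450 promoters lay in a shared region (71.4%), against 83.8% of all such promoters. Under 0.6, 7 of 79 did (8.86%), against 20.1%. The 2 CpG-rich promoters that did not overlap a shared region were those of Cyp26a1 (0.894) and Cyp1b1 (0.642), whose shared region lies farther upstream. The part of CpG content in the low count of open P450 promoters was not tested further.

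**Figure D5:**
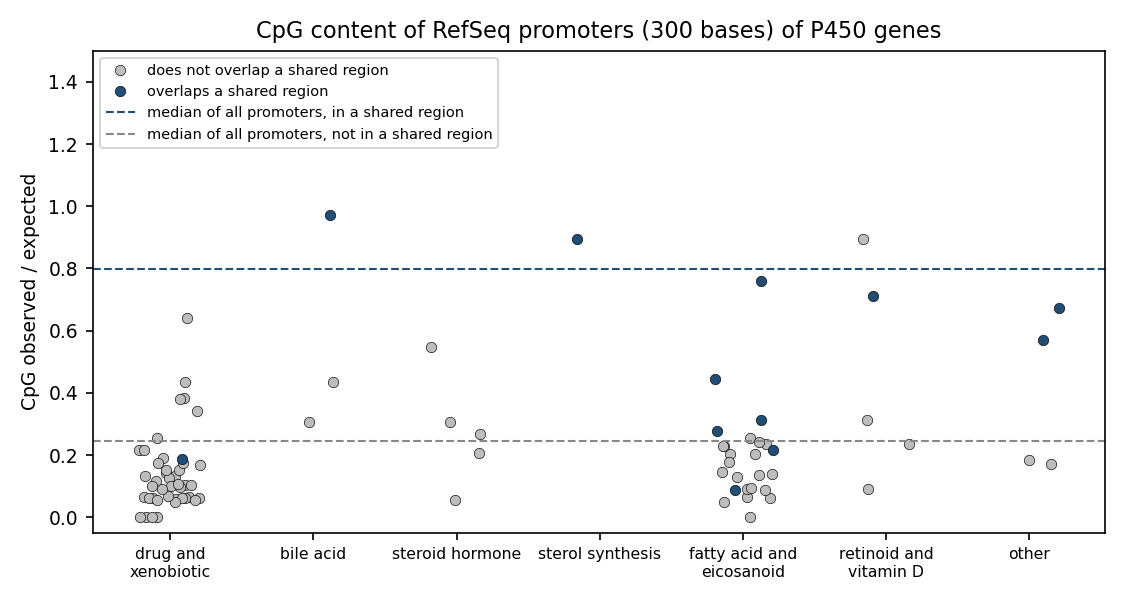
Observed over expected CpG (y axis) of the RefSeq promoters of P450 genes by class, for promoters that overlap a shared region (blue) and those that do not (grey). Dashed lines mark the medians of all promoters in a shared region (0.798) and not in one (0.246), and most grey points lie under the lower line.

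After the median ratio of all shared regions was set to 0, the log2 ratio of replicate 2 to replicate 1 over the 20 genes ran from -0.38 at Cyp1a1 to 0.92 at Cyp7b1, with a median of 0.10. It was over 0 at 13 genes and under 0 at 7. The erythroid markers had a median of -0.70, with 9 of 10 under 0. The 6 open hepatoblast markers had 0.15 and the 3 open stellate markers 0.53, so the libraries differed in these cell type genes. Of the gene lists above, the 7 open genes of retinoid supply and breakdown had a median of 0.75, all over 0. The 24 cholesterol genes had -0.21, with 19 under 0. The part of these differences in the P450 values was not tested. Peaks of 1 replicate alone at P450 promoters had signals up to 0.634, from 105 counts at Cyp4f17 in replicate 2. All were under the median peak of their library, 0.873 in replicate 1 and 0.761 in replicate 2. Some shared promoter regions were under 0.634 in replicate 2 as well, among them those of Cyp2s1 (0.525), Cyp7b1 (0.398), Cyp2j6 (0.368) and Cyp2j9 (0.320).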

How the data were processed

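DNase-seq peaks, FDR values and footprints of 2 libraries of embryonic liver (1 group) were used. The authors derived each library's peak signal, with no unit named, from its own filtered mm10 alignment, per the deposited notes. The deposited FDR values (p-value type, all under 0.05) and footprints (threshold 0.01) come from the same alignments, with aligner and callers not given in the sources used here. The longer of 2 deposited peak lists per library was used (76130 and 73852 peaks); the shorter was an alternative. Peaks that overlapped by 1 bp or more were joined in Python 3.11.15 (numpy 2.4.6, pandas 2.3.3), checked on simulated data. Genes came from GENCODE M21, coordinates are 1-based, 0 lines lay outside the 21 chromosomes, and 500 of 500 RefSeq promoters compared matched the assembly. No test was run, and lists are described by counts beside all genes. P450 genes, classes, gene lists and motifs were chosen with earlier results of these data known. Named were all members with a promoter peak, the 10 with the most distal regions, and a set list of enzymes; other names were chosen after their values were seen. Alternatives changed the peak list, signal threshold, windows, starts, footprint rule and replicates.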

Additional observations from a re-analysis of the deposited data

How the results depend on the processing

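Of 90 alternative values over 12 results, 73 stayed within 1.5 times the reported count or within the spread of the replicates, and 17 moved. In all 10 settings compared, the share of P450 genes with a shared promoter region was under that of all genes. With the upper 50% of peaks by signal, the 20 genes became 12, the fatty acid and eicosanoid genes 4, the steroid hormone genes 0, the genes with any distal region 28 and the mean distal count 0.677. With the shorter peak list the steroid hormone count was 0 and the mean distal count 0.768. Counting 5′ ends only gave 0 steroid hormone genes and a mean of 1.44. Distal windows of 20 kb and 100 kb gave means of 0.475 and 2.17 (1.08 and 4.25 over all genes), and 32 genes had a region within 20 kb. A promoter window of 2.5 kb gave 2 retinoid and vitamin D genes, with Cyp26b1 added. With the peaks of 1 replicate at a time, all P450 genes ranged from 21 to 25 (60.6% and 65.3% of all genes), retinoid and vitamin D genes from 1 to 3, the mean distal count from 1.88 to 1.95 and genes with a promoter footprint from 16 to 25. The higher counts of genes came without replicate 1, where Cyp24a1 and Cyp26a1 were added and 25 genes had a promoter footprint, and the higher mean distal count came without replicate 2. Depth limits the low promoters: Cyp7b1 and Cyp2j9 rest on 19 counts each in replicate 1. The steroid hormone count rests on Cyp17a1 alone. No paired analysis was possible because both libraries belong to 1 group.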
